A study of Homo sapiens with 12 samples.

Results

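The 36 genes described here are the enzymes that carry glucose to lactate together with genes induced by the hypoxia-inducible factors (HIF), in xenograft tumours of MDA-MB-231 cells carried by mice. They were taken by symbol from a list of genes grouped by function, and all 36 were among the 25369 gene symbols of the count table. By role they comprised 14 glycolytic enzymes and 22 other members, which were glucose transporters, regulators of glucose flux, secreted factors, oxygen-sensing genes, mitophagy receptors, enzymes of the secretory pathway and further HIF targets. Of the 36, 34 passed the filter on low counts and were tested, namely all 14 enzymes and 20 other members. CA9, a carbonic anhydrase of the cell surface, held 0 to 6 counts per library, and ANKRD37, a HIF-induced ankyrin repeat gene, held 0 to 2, so neither was tested.

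MDA-MB-231 is an established line of human triple-negative breast cancer, and cells in Matrigel were placed in the mammary fat pad. Dosing was intraperitoneal on 5 days a week from a tumour volume of 100 mm3. The control group was given the vehicle alone, which held 4% DMSO, 30% PEG300 and 5% Tween 80. SB202190 was the agent of the p38i group, dosed at 1 mg/kg/day to block p38 MAP kinases. In the EZH2i group the agent, spelled both EPZ-6428 and EPZ-6438 in the labels, blocks EZH2, which methylates histones, and its dose was 10 mg/kg/day. Combination mice were given both. RNA of 3 tumours per group was sequenced, in 12 libraries. The strain and age of the mice and the length of treatment are not given in the sources used here. The labels do not say which mouse gave which tumour, so the p-values measure the spread between these tumours. Libraries carry the tumour numbers of the titles, except for p38i columns 5 and 6. The labels assign column 5 to both p38i tumours 3-4 and 4-2 and column 6 to no sample, so column 5 is a p38i library of unknown tumour and column 6 was taken as p38i by elimination.

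As background, HIF is a transcription factor whose alpha subunit is hydroxylated in the presence of oxygen by the EGLN enzymes and then degraded. When oxygen is low the subunit persists, pairs with ARNT and binds short DNA elements beside its targets. Those targets raise glucose uptake and lactate production, hold pyruvate back from the mitochondria and call in blood vessels. In solid tumours the programme is known for marking poorly perfused regions, and glycolysis is often active in cancer cells with oxygen present as well.

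Total counts per library were 2208771 to 4467942. Levels below are in CPM, each count divided by the total of its library after TMM scaling, a correction for differences in RNA composition. The 7 markers of the line, among them VIM, CD44 and AXL, summed to 6883 to 9257 CPM in the 12 libraries, and ESR1, PGR, ERBB2, FOXA1 and GATA3 summed to 59.7 to 80.3 CPM. Skeletal muscle markers stood apart in p38i column 6, where 12 of 12 were highest and their sum was 2196 CPM against 63.6 to 246 CPM elsewhere. The summed level of 15 G2/M genes was also highest there, at 4729 CPM against 1633 to 3809 CPM. All 15 had a positive log2 fold change in each treated group, with medians of 0.77 with p38i, 0.56 with EZH2i and 0.65 with the combination. Of all genes tested 49.9%, 51% and 50.4% were positive in the same order. At an unadjusted p under 0.05 in edgeR there were 14, 7 and 8 of the 15, against 18.4%, 14.7% and 16.3% of all genes. BUB1, a mitotic checkpoint kinase, rose with p38i (1.18, adjusted p = 0.0461 in edgeR), a call made by DESeq2 and not by limma-voom. Lists for other cell types had lower or scattered sums. Fibroblast markers ranged from 289 CPM in p38i 3-3 to 1126 CPM in combination 9-2, macrophage markers from 23.7 to 46.6 CPM and endothelial markers from 13.4 to 31.4 CPM. With p38i the pericyte and fibroblast receptor PDGFRB fell (-2.03, adjusted p = 0.0433 in edgeR), 1 of 7 fibroblast markers tested. Of these 7, 3 had a positive and 4 a negative log2 fold change, with a median of -0.09 and PDGFRA highest at 1.23. The PDGFRB call was made by DESeq2 and not by limma-voom. TIE1, a receptor of endothelial cells, rose with p38i (3.36, adjusted p = 0.0298), 1 of 4 endothelial markers tested. The other 3 had a negative log2 fold change, the lowest being PECAM1 at -0.68, and the median of the 4 was -0.32. The TIE1 call was made by limma-voom and not by DESeq2. Erythroid markers ranged from 0.83 to 21.3 CPM, with HBA1 and HBA2 at 0 in all 12 libraries. The genome build was hg19, and any removal of mouse reads is not given in the sources used here. For these lists, RNA of the human tumour cells and RNA of mouse cells therefore cannot be told apart. In bulk tumours the same holds for fewer cells of a type and less RNA per cell.

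The promoters of the 4 members on which the results below turn most are shown because HIF acts through a short core element. The sequences come from RefSeq (GRCh38.p14), matched by symbol, with ERO1L entered there as ERO1A. Each is the 250 bases upstream of the most 5′ start, written 5′ to 3′ on the gene's strand, and capitals mark the core ACGTG or GCGTG on either strand (CACGT and CACGC when read on the other). The windows are chr19:8363905-8364154 (plus strand) for ANGPTL4, chr1:42958869-42959118 (minus) for SLC2A1, chr14:52695559-52695808 (minus) for ERO1L and chr2:74833877-74834126 (plus) for HK2.
ANGPTL4: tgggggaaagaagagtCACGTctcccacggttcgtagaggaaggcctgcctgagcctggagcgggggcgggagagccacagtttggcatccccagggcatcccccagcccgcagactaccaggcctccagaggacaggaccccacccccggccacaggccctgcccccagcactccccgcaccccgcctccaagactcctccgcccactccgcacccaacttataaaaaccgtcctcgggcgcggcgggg
SLC2A1: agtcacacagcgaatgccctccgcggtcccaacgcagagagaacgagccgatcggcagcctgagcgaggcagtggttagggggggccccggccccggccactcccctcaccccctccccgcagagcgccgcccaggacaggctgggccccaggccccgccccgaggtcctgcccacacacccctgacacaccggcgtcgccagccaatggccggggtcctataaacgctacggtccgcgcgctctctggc
ERO1L: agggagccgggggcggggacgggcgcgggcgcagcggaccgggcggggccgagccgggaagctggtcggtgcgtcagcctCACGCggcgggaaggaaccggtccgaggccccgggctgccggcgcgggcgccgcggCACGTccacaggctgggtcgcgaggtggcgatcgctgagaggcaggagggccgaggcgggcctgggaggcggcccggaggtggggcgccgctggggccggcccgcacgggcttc
HK2: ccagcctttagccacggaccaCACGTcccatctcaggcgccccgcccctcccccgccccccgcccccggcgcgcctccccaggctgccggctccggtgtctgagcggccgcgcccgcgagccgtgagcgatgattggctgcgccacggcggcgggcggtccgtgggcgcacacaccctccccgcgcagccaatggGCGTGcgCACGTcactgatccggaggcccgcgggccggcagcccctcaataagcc
The ANGPTL4 window held 1 match, SLC2A1 none, ERO1L 2 and HK2 3. A window was at hand for 32 members, all except VEGFA, SLC2A3, BNIP3L and NDRG1. Of these 32, 22 (68.8%) held at least 1 match, against 43.2% of the 35116 windows of the same length in the table. By class, 9 of 14 enzyme windows and 13 of 18 windows of other members held a match. The palindrome CACGTG holds both forms of the core and was counted as 2 matches. A match describes the letters of the window and does not show binding.

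Against control, 1 of the 34 tested members passed the threshold in 1 comparison. It was ANGPTL4, a secreted inhibitor of lipoprotein lipase, which fell with p38i. The threshold was an adjusted p of 0.05 from edgeR's quasi-likelihood test over 12514 genes, and it called 1.77% of all genes tested with p38i, of which 0.655% were higher and 1.11% lower. With EZH2i 0 of 34 members passed (0.216% of all genes), with the combination 0 (0.00799%). On the same counts DESeq2 called 1 member with p38i (5.72% of all genes with an adjusted p), 2 with EZH2i (2.01%) and 2 with the combination (1.74%). The limma-voom test called 0 in each, against 1.32%, 0.128% and 0.00799% of all genes. At an unadjusted p under 0.05 in edgeR, 5 of 34 members (14.7%) stood out with p38i, against 18.4% of all genes. That count was 7 (20.6%) with EZH2i against 14.7% of all genes, and 7 (20.6%) with the combination against 16.3%. The 3 comparisons share the control tumours. The part in these results of the G2/M, PDGFRB and TIE1 differences given above was not tested.

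**Figure D1:**
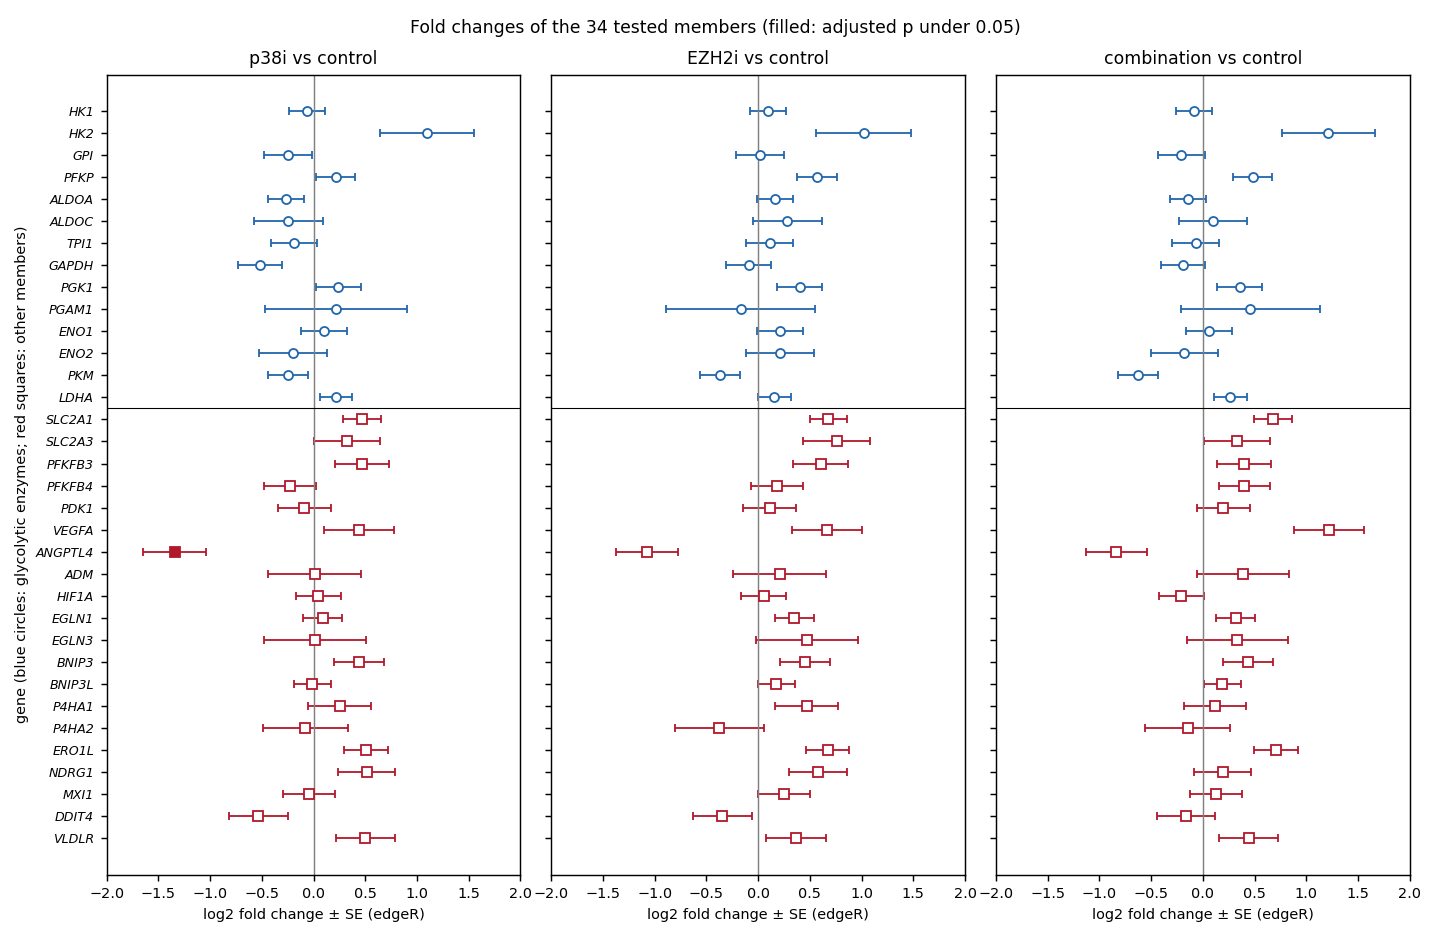
Log2 fold changes with their standard errors (horizontal axis) for the 34 tested members (vertical axis) in p38i, EZH2i and combination tumours against control, from edgeR, with enzymes as blue circles and other members as red squares. The filled symbol is ANGPTL4 with p38i (-1.34), and SLC2A1, ERO1L and HK2 lie to the right of 0 in every panel.

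Among the secreted factors, ANGPTL4 was lower and VEGFA, the main growth factor of blood vessels, was higher on average in each treated group. Within a group, values follow the order control 1-1, 1-3 and 2-1, p38i 3-3, column 5 and column 6, EZH2i 5-3, 5-4 and 6-1, and combination 8-1, 9-1 and 9-2. ANGPTL4 stood at 95.7, 243 and 165 CPM in control tumours, 77.0, 69.0 and 53.3 CPM with p38i, 96.0, 86.8 and 55.9 CPM with EZH2i, and 91.4, 75.3 and 117 CPM with the combination. All 3 p38i libraries lay below every control, whereas EZH2i 5-3 and combination 9-2 overlapped the lowest control, and control 1-3 was the highest of the 12. With p38i it fell by 1.34 ± 0.30 (SE) on the log2 scale, a 2.54-fold lower level (adjusted p = 0.04331). The differences with EZH2i (-1.08 ± 0.30, adjusted p = 0.142) and the combination (-0.84 ± 0.30, adjusted p = 0.232) did not pass in edgeR, and DESeq2 called the first of them (adjusted p = 0.0293). The p38i call was kept in 9 of 19 alternatives and its direction in all 19. Without control 1-3 the value was -0.97 (adjusted p = 0.178), and without p38i column 6 it was -1.20 (0.188). The EZH2i and combination differences were also smaller without control 1-3, at -0.71 (adjusted p = 0.408) and -0.47 (0.595). Leaving out p38i 3-3 (0.0903), p38i column 5 (0.124), or combination 8-1 (0.0591), 9-1 (0.0598) or 9-2 (0.0541) also ended the call, as did limma-voom (0.0536), no filter on low counts (0.0636) and a fit of the groups compared alone (0.0807).

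VEGFA stood at 166, 122 and 194 CPM in control tumours, 352, 168 and 137 CPM with p38i, 291, 201 and 278 CPM with EZH2i, and 272, 522 and 330 CPM with the combination. All EZH2i and combination libraries lay above the controls, while p38i column 5 and column 6 lay among them. The difference was 1.22 ± 0.34 with the combination (2.33-fold, adjusted p = 0.190), 0.67 ± 0.34 with EZH2i (0.381) and 0.44 ± 0.34 with p38i (0.525), none of which passed in edgeR. The p38i value rested on tumour 3-3, without which it was -0.077. DESeq2 called the combination (1.21, adjusted p = 0.0261). ADM, which encodes the vasodilator peptide adrenomedullin, varied more within groups than between them, from 123 to 486 CPM among the p38i libraries alone, with differences of 0.01 to 0.39.

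**Figure D2:**
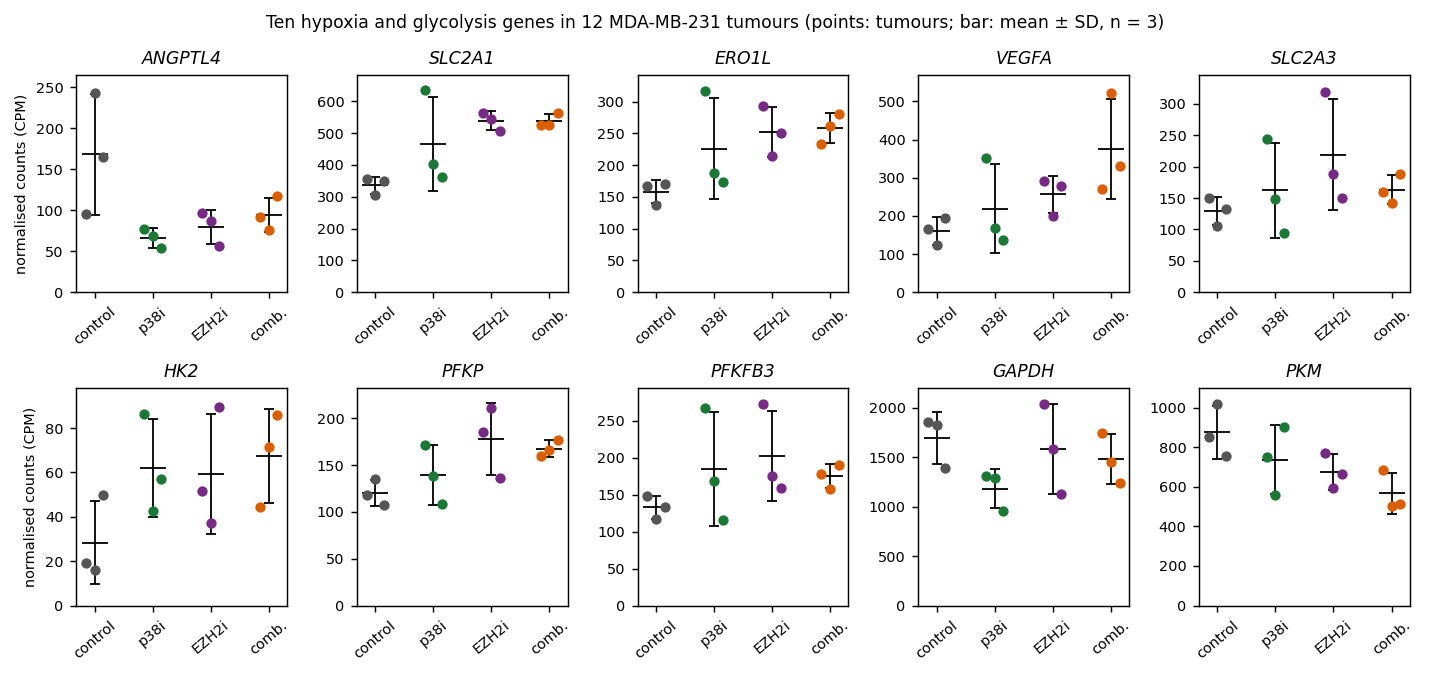
Level of 10 members in TMM-scaled CPM (vertical axes, from 0) by group (horizontal axes), with 1 point per tumour and bars at the mean ± SD (n = 3). SLC2A1 and ERO1L lie above all 3 controls in every treated tumour, the 3 p38i points of ANGPTL4 lie below the controls, and HK2 spreads widely among the controls (16.2 to 49.8 CPM).

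The glucose transporters were higher on average in each treated group, and neither passed the threshold. SLC2A1 encodes the widely expressed transporter GLUT1. Its level was 354, 305 and 349 CPM in control tumours, 635, 402 and 361 CPM with p38i, 564, 545 and 506 CPM with EZH2i, and 526, 527 and 562 CPM with the combination. All 9 treated libraries lay above all 3 controls, p38i column 6 narrowly. SLC2A1 and ERO1L were the 2 members of 34 with this order, which 2.79% of all genes tested also had. Lower levels in all 9 were seen in 0 members and in 3.33% of all genes. The SLC2A1 difference was 0.68 ± 0.18 with EZH2i (1.60-fold, adjusted p = 0.128), 0.68 ± 0.18 with the combination (0.174) and 0.47 ± 0.18 with p38i (0.185). DESeq2 called it with EZH2i (adjusted p = 0.0318) and the combination (0.0403). The p38i value depended on tumour 3-3, without which it was 0.18, and without column 6 it was 0.64.

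SLC2A3 encodes the high-affinity transporter GLUT3. It stood at 149, 106 and 133 CPM in control tumours, 244, 149 and 93.7 CPM with p38i, 319, 188 and 150 CPM with EZH2i, and 159, 142 and 188 CPM with the combination. The EZH2i libraries lay above the controls by a narrow margin at EZH2i 6-1, and the other treated groups overlapped them. Its difference with EZH2i was 0.76 ± 0.32 (adjusted p = 0.301), and 0.41 without EZH2i 5-3. With p38i it was 0.32, and -0.090 without tumour 3-3, and with the combination it was 0.33.

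Of the 14 glycolytic enzymes 0 passed in a comparison with control in edgeR, DESeq2 or limma-voom. An unadjusted p under 0.05 in edgeR was reached by 2 with p38i, 2 with EZH2i and 3 with the combination. These counts are 14.3%, 14.3% and 21.4% of the enzymes, against 18.4%, 14.7% and 16.3% of all genes. The enzymes with the largest differences differed in opposite directions. HK2, an inducible hexokinase that traps glucose in the cell, stood at 19.1, 16.2 and 49.8 CPM in control tumours, 86.2, 42.8 and 57.2 CPM with p38i, 51.6, 37.0 and 89.5 CPM with EZH2i, and 44.2, 71.5 and 86.0 CPM with the combination. Control 2-1 lay inside the range of each treated group, and the other controls lay below every treated library. The difference was 1.09 ± 0.45 with p38i (adjusted p = 0.225), 1.02 ± 0.46 with EZH2i (0.328) and 1.21 ± 0.45 with the combination (2.32-fold, 0.245). Without control 2-1 HK2 passed with p38i (1.82, adjusted p = 0.0338) and with the combination (1.94, 0.0423). HK1, the constitutive hexokinase, differed by -0.08 to 0.09.

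PFKP, the platelet-type phosphofructokinase that commits sugar to glycolysis, stood at 118, 136 and 107 CPM in control tumours, 172, 138 and 109 CPM with p38i, 186, 212 and 136 CPM with EZH2i, and 160, 166 and 177 CPM with the combination. The combination libraries lay clear of the controls, and EZH2i 6-1 lay just above control 1-3. The difference was 0.57 ± 0.19 with EZH2i (adjusted p = 0.200), 0.48 ± 0.19 with the combination (0.253) and 0.21 ± 0.19 with p38i (0.596).

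GAPDH, which makes the first NADH of the pathway, was lower with p38i without passing. Its level was 1859, 1829 and 1390 CPM in control tumours, 1307, 1292 and 952 CPM with p38i, 2044, 1582 and 1134 CPM with EZH2i, and 1749, 1454 and 1243 CPM with the combination. The p38i libraries lay below all controls, and the EZH2i and combination libraries overlapped them. The p38i difference was -0.52 ± 0.21 (adjusted p = 0.215), and -0.37 without column 6. With EZH2i the GAPDH difference was -0.09, and with the combination -0.19. PKM, the pyruvate kinase gene, stood at 851, 1020 and 754 CPM in control tumours, 751, 557 and 903 CPM with p38i, 773, 592 and 667 CPM with EZH2i, and 685, 502 and 514 CPM with the combination. Only the combination libraries lay below every control, with a difference of -0.63 ± 0.19 (adjusted p = 0.199). With EZH2i it was -0.37 ± 0.19 (0.392) and with p38i -0.25 ± 0.19 (0.535).

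The other enzymes differed little. LDHA, which makes lactate, stood at 1941, 2056 and 2192 CPM in control tumours and at 2454, 2498 and 2492 CPM with the combination, where it lay above all controls (0.27 ± 0.16, adjusted p = 0.402). The LDHA difference was 0.22 with p38i and 0.16 with EZH2i. PGK1, which makes ATP, differed by 0.24 with p38i, 0.40 with EZH2i and 0.36 with the combination. ALDOC, an aldolase, lay above the controls in all EZH2i libraries, at 12.6, 10.2 and 10.5 CPM against 8.33, 9.61 and 9.24 CPM (0.28 ± 0.33, adjusted p = 0.733). GPI, ALDOA, TPI1, ENO1 and ENO2 lay between -0.27 (ALDOA) and 0.10 (ENO1) with p38i, between 0.02 (GPI) and 0.21 (ENO1 and ENO2) with EZH2i, and between -0.21 (GPI) and 0.06 (ENO1) with the combination. PGAM1, the mutase, held 4 to 37 counts per library, so its differences of -0.17 to 0.46 had standard errors of 0.67 to 0.72. Several of these genes, GAPDH, PGK1, ENO1, LDHA and PGAM1 among them, have near-identical pseudogene copies, and how the authors' counting treated shared reads is not given in the sources used here.

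Among the regulators of glucose flux, PFKFB3 makes the activator of phosphofructokinase. It stood at 149, 117 and 133 CPM in control tumours, 268, 169 and 116 CPM with p38i, 272, 175 and 160 CPM with EZH2i, and 178, 158 and 190 CPM with the combination. EZH2i and combination libraries lay above the controls, and p38i column 6 lay below them. The EZH2i difference was 0.61 ± 0.26 (adjusted p = 0.309), which was 0.35 without EZH2i 5-3. With p38i the PFKFB3 difference was 0.47, and with the combination 0.40. PFKFB4, a relative of PFKFB3, stood at 26.2, 21.3 and 26.1 CPM in control tumours and at 31.4, 34.3 and 31.4 CPM with the combination, above all controls and above the p38i libraries (28.3, 21.0 and 13.9 CPM). Its difference from control with the combination was 0.40 ± 0.25 (adjusted p = 0.418). PDK1, a kinase that shuts off pyruvate dehydrogenase, ranged from 64.8 CPM in p38i column 6 to 152 CPM in EZH2i 5-3, and its differences were -0.09 to 0.20.

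ERO1L encodes an oxidase that forms disulfide bonds in the endoplasmic reticulum. Its level was 167, 137 and 171 CPM in control tumours, 317, 187 and 173 CPM with p38i, 293, 215 and 250 CPM with EZH2i, and 233, 262 and 280 CPM with the combination. Each treated library lay above the controls, p38i column 6 narrowly. The difference was 0.71 ± 0.21 with the combination (1.63-fold, adjusted p = 0.192), 0.67 ± 0.21 with EZH2i (0.179) and 0.51 ± 0.21 with p38i (0.213), and the p38i value was 0.18 without tumour 3-3 and 0.68 without column 6. The collagen prolyl hydroxylase P4HA1 spanned 191 to 500 CPM within the p38i group, with differences of 0.12 to 0.47. P4HA2, another such subunit, held 16 to 53 counts per library and differed by -0.37 to -0.08.

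The oxygen-sensing genes showed small differences. HIF1A, the regulated alpha subunit, whose activity is set largely at the level of the protein, stood at 52.4, 42.3 and 32.0 CPM in control tumours, 48.1, 42.8 and 39.4 CPM with p38i, 55.3, 33.6 and 42.3 CPM with EZH2i, and 35.2, 32.4 and 41.7 CPM with the combination. All groups overlapped, and the differences were 0.05, 0.05 and -0.21. EGLN1, the main oxygen-sensing hydroxylase, lay above the controls (50.4, 40.5 and 43.1 CPM) in all combination libraries (52.5, 59.9 and 54.0 CPM), with a difference of 0.32 ± 0.19 (adjusted p = 0.405). With EZH2i, where EZH2i 5-3 overlapped the controls, the EGLN1 difference was 0.35 ± 0.19, and with p38i it was 0.09. EGLN3, a hydroxylase that HIF itself induces, ranged from 8.81 CPM in p38i column 6 to 52.9 CPM in EZH2i 5-3, a 6.00-fold span.

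The mitophagy receptors BNIP3 and BNIP3L lay above the controls in all EZH2i libraries, narrowly at EZH2i 5-4 for BNIP3 and at EZH2i 6-1 for BNIP3L. BNIP3 stood at 353, 295 and 385 CPM in control tumours and at 594, 389 and 431 CPM with EZH2i (0.45 ± 0.24, adjusted p = 0.401). Its difference was of like size with p38i (0.44) and the combination (0.43), where the libraries overlapped the controls. BNIP3L stood at 431, 416 and 418 CPM in control tumours and at 538, 454 and 436 CPM with EZH2i (0.18 ± 0.18, adjusted p = 0.688). With the combination it also lay above all controls, at 441, 470 and 527 CPM (0.19), and with p38i it differed by -0.01. Of the further targets, NDRG1, a stress-responsive differentiation gene, stood at 2058, 1843 and 1746 CPM in control tumours, 3600, 2964 and 1503 CPM with p38i, 3860, 2085 and 2487 CPM with EZH2i, and 2411, 1896 and 2146 CPM with the combination. The EZH2i libraries lay above the controls, and p38i column 6 was the lowest of the 12. Its EZH2i difference was 0.58 ± 0.28 (adjusted p = 0.353), and 0.30 without EZH2i 5-3. VLDLR, a lipoprotein receptor, lay above the controls (9.16, 9.31 and 12.1 CPM) in all p38i libraries (14.7, 13.8 and 15.2 CPM), with a difference of 0.50 ± 0.28 (adjusted p = 0.367). The VLDLR difference was 0.37 with EZH2i and 0.44 with the combination, where the libraries overlapped the controls. DDIT4, an inhibitor of mTORC1 signalling, differed by -0.53 with p38i, -0.35 with EZH2i and -0.16 with the combination, and MXI1, an antagonist of MYC, by -0.05, 0.25 and 0.12.

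The glycolytic enzymes and the other members were then compared as classes. With p38i, 6 of 14 enzymes and 13 of 20 other members had a positive log2 fold change, against 49.9% of all genes. With EZH2i these counts were 11 of 14 and 17 of 20, against 51% of all genes, and with the combination 7 of 14 and 16 of 20, against 50.4%. The median log2 fold change of the enzymes was -0.13 with p38i, 0.16 with EZH2i and -0.01 with the combination. The median of the other members was 0.07, 0.36 and 0.32 in the same order, and that of all genes was -0.00, 0.01 and 0.01. The enzyme median was thus lower than the other median by 0.20, 0.20 and 0.33, and these differences were negative in all 19 alternatives, although the comparisons share their controls. The SD of the gap between libraries, pooled over the groups compared, was 0.27 with p38i, 0.24 with EZH2i and 0.24 with the combination. The difference was smaller than this SD with p38i and EZH2i and larger with the combination.

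The gap moved when single libraries were left out. Without control 1-3 it was -0.15 with p38i, -0.14 with EZH2i and -0.14 with the combination. It was -0.30, -0.24 and -0.35 in the same order without control 1-1, and -0.26, -0.20 and -0.37 without control 2-1. With p38i the gap was -0.04 without tumour 3-3 and -0.42 without column 6, and the median of the other members was -0.13 and 0.41 respectively. With EZH2i the gap was -0.02 without tumour 6-1, -0.05 without 5-3 and -0.39 without 5-4, and with the combination it was -0.11 without 9-2 and -0.42 without 8-1. Combination 9-2 had the largest separation, with enzymes at -0.19 and other members at 0.21 as the median log2 deviation from each gene's mean over the 12 libraries. In combination 8-1 the order was turned, with enzymes at 0.13 and other members at -0.01. The order was also turned in p38i column 6 (-0.35 and -0.60) and in EZH2i 5-4 (0.14 and -0.09), so each treated group held such a library.

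**Figure D3:**
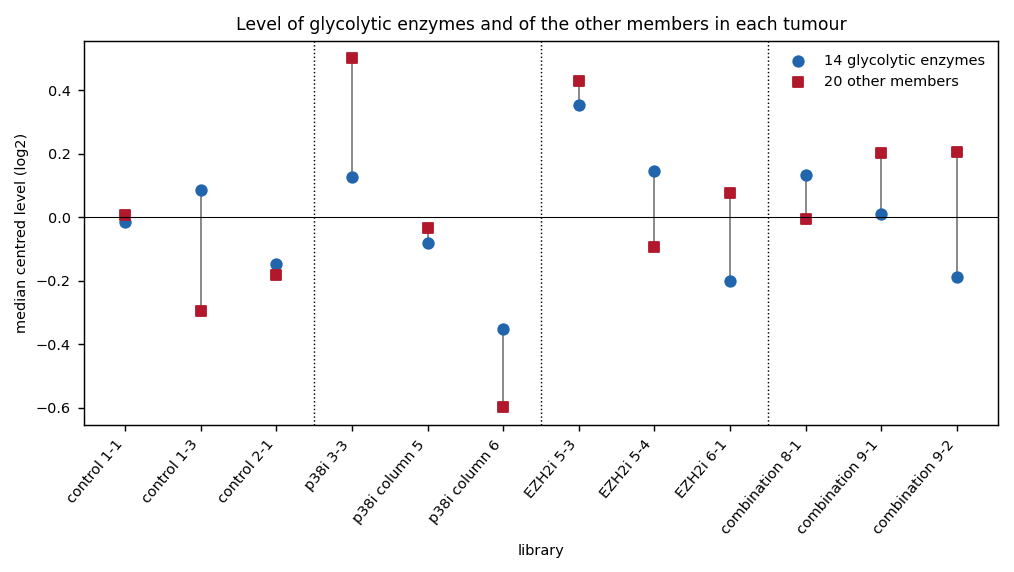
Median over the 14 enzymes (blue circles) and the 20 other members (red squares) of the log2 deviation from each gene's mean over all 12 libraries (vertical axis), by library (horizontal axis). The lowest pair is p38i column 6 (-0.35 and -0.60), and p38i 3-3 and EZH2i 5-3 have the highest other members (0.50 and 0.43).

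Counts of members whose treated and control libraries did not overlap are given by class. With EZH2i 10 of 34 members (29.4%) lay wholly above control, against 8.32% of all genes, and 0 lay wholly below, against 8.09%. The 10 were 2 of 14 enzymes (PFKP and ALDOC) and 8 of 20 other members (SLC2A1, SLC2A3, PFKFB3, VEGFA, BNIP3, BNIP3L, ERO1L and NDRG1). With the combination 9 of 34 (26.5%) lay wholly above, against 10.7% of all genes, of which 2 were enzymes (PFKP and LDHA) and 7 were SLC2A1, PFKFB3, PFKFB4, VEGFA, EGLN1, BNIP3L and ERO1L. PKM alone lay wholly below, against 11.2% of all genes. With p38i 3 of 34 (SLC2A1, ERO1L and VLDLR) lay wholly above, against 12.3% of all genes, and 2 (GAPDH and ANGPTL4) wholly below, against 12.5%. Without column 6 the p38i counts were 10 above (29.4%, against 17.5% of all genes) and 3 below (against 16.7%).

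Much of the variation ran between tumours of the same group. Within p38i, tumour 3-3 was the highest of the 3 libraries for 27 of 34 members and for 19 of 20 other members, and column 6 was the lowest for 30 of 34 and for 19 of 20. Over all 12 libraries column 6 was the lowest for 21 members, 7 of them enzymes and 14 others. EZH2i 5-3 was the highest of the 12 for 16 members, among them SLC2A3, GAPDH, PGK1, ENO2, P4HA1 and NDRG1. Such ranks were not counted over all genes tested, so how far they are particular to these members is not known. The 14 enzymes together took from 0.882% of all counts in p38i column 6 to 1.32% in EZH2i 5-3. The member levels of column 6 go with the muscle and G2/M sums given above, whose part in them was not tested. ENO3, the enolase of skeletal muscle, which is no member, was 39.4 CPM in column 6 and 4.50 to 13.4 CPM elsewhere. Without tumour 3-3, 12 of 34 members were positive with p38i, in place of 19, and without column 6 there were 25. Without EZH2i 5-3, 22 of 34 were positive with EZH2i, in place of 28.

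**Figure D4:**
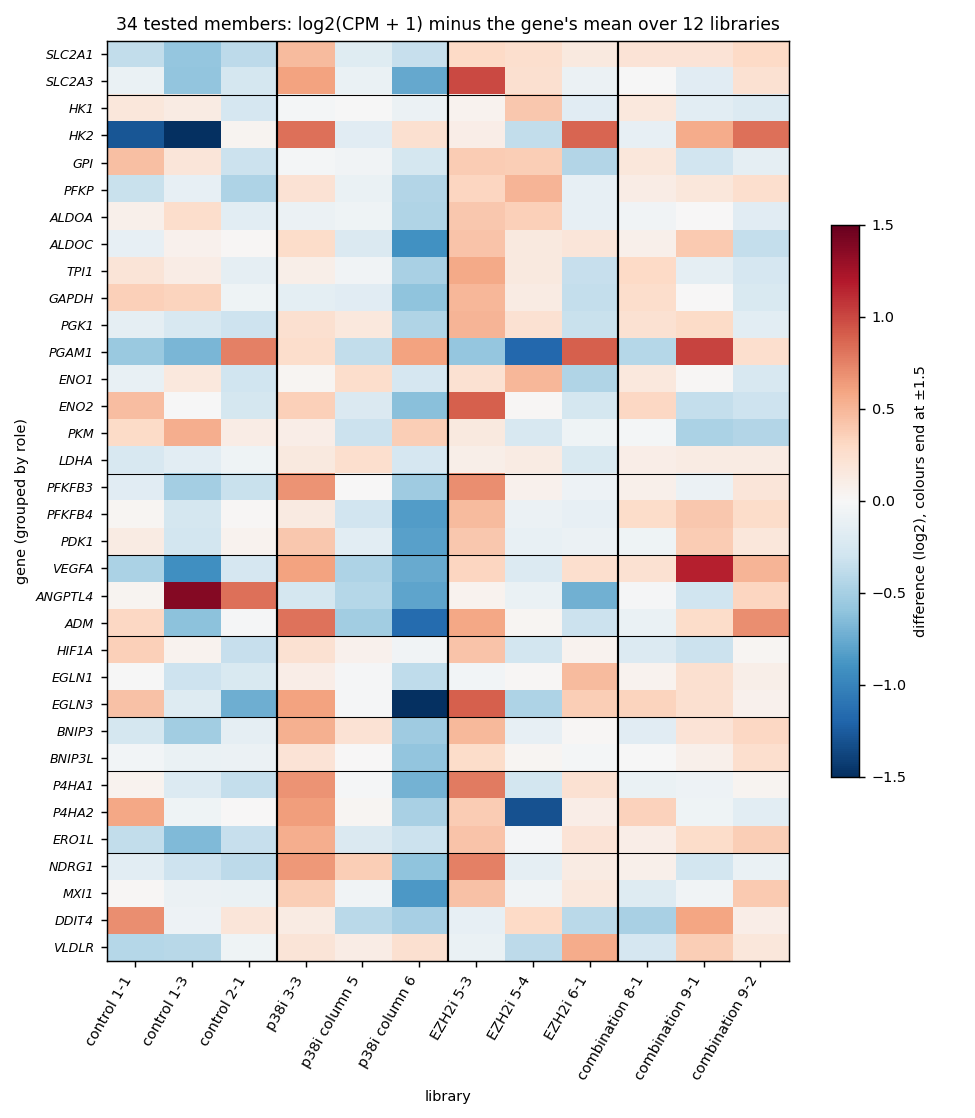
Colour shows log2(CPM + 1) minus the gene's mean over 12 libraries, for the 34 tested members (vertical axis, grouped by role) in each library (horizontal axis, grouped by treatment), with the scale ending at ±1.5. Column 6 of p38i is blue for most members, p38i 3-3 and EZH2i 5-3 are red for most, and ANGPTL4 is red in controls 1-3 and 2-1.

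The combination was also set against each agent alone. Against p38i 0 of 34 members passed in edgeR, DESeq2 or limma-voom (0% of all genes in edgeR), and 2 (5.88%) had an unadjusted p under 0.05, against 7.81% of all genes. These were PFKFB4 (0.63 ± 0.25, adjusted p = 0.587), and VEGFA (0.78 ± 0.34, adjusted p = 0.616). The PFKFB4 value was 0.40 without column 6. The VEGFA value was 1.30 without p38i 3-3, 0.53 without column 6 and 0.47 without combination 9-1. PFKFB4 was also the 1 member whose combination libraries lay wholly above p38i, an order held by 6.77% of all genes. Against EZH2i 0 passed with any of the 3 tools (0% of all genes in edgeR) and 0 had an unadjusted p under 0.05, against 3.12% of all genes. SLC2A1 and ERO1L differed from EZH2i by -0.00 ± 0.18 and 0.03 ± 0.21. In the interaction, which asks whether the combination departs from the sum of both agents' log2 effects, 0 of 34 passed in edgeR or limma-voom (0.024% of all genes in edgeR) and DESeq2 called ANGPTL4 (1.96% of all genes in DESeq2). Its interaction was 1.59 ± 0.42 (adjusted p = 0.140 in edgeR, 0.0229 in DESeq2). An unadjusted p under 0.05 was reached by 2 members (5.88%), against 13.1% of all genes, the other being NDRG1 (-0.90 ± 0.39, adjusted p = 0.344).

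Further genes of the same pathways were taken from fixed lists. Of 14 genes of the HIF machinery (the partner subunit ARNT, the ligase VHL, cofactors and others) 13 were tested, and 0 passed against control in any group in edgeR, DESeq2 or limma-voom. At an unadjusted p under 0.05 in edgeR there were 2 with p38i, 0 with EZH2i and 2 with the combination, against 18.4%, 14.7% and 16.3% of all genes. The remaining gene, EGLN2, was listed at 0 counts in every library. Of 38 further HIF targets 36 were tested, with medians of 0.01 with p38i, 0.22 with EZH2i and 0.24 with the combination. At an unadjusted p under 0.05 in edgeR there were 9, 12 and 11 of the 36, against the same 18.4%, 14.7% and 16.3% of all genes. BHLHE41, a transcriptional repressor of the circadian clock, was the gene of that list that passed in edgeR and limma-voom, both with p38i, and DESeq2 called 3, 2 and 2 genes of it in the 3 comparisons. Its level was 115, 93.7 and 103 CPM in control tumours, 45.7, 44.4 and 34.7 CPM with p38i, 71.1, 36.5 and 39.7 CPM with EZH2i, and 59.5, 68.5 and 43.9 CPM with the combination. All treated libraries lay below the controls. It fell by 1.32 ± 0.24 with p38i (2.49-fold lower, adjusted p = 0.0203), and the differences with EZH2i (-1.08, adjusted p = 0.0749) and the combination (-0.85, 0.180) did not pass in edgeR. DESeq2 called both (adjusted p = 0.00503 and 0.0488), and in edgeR the EZH2i difference passed with no filter on low counts (0.0105) and without EZH2i 5-3 (-1.42, 0.0268). The p38i call ended without control 1-1 (adjusted p = 0.0667) or 1-3 (0.0833), or without p38i 3-3 (0.0617), column 5 (0.0611) or column 6 (0.107), with differences of -1.39 to -1.19.

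Of 36 further genes of glycolysis and pyruvate use 23 were tested, and 0 passed against control in edgeR or limma-voom, while DESeq2 called ENO3 with p38i. At an unadjusted p under 0.05 in edgeR there were 4 with p38i, 5 with EZH2i and 2 with the combination, beside the shares of all genes just given. All 8 genes of the pentose phosphate pathway, which branches from glycolysis to make NADPH and ribose, were tested. With EZH2i 6 of the 8 had a positive log2 fold change, with a median of 0.36 and RPIA highest at 0.79. Medians with p38i and the combination were 0.25 and 0.17. An unadjusted p under 0.05 in edgeR was reached by 2 of the 8 in each treated group, beside the same shares of all genes. H6PD, the hexose-phosphate dehydrogenase of the endoplasmic reticulum, fell with EZH2i, the 1 of 8 that passed there (0.216% of all genes). It stood at 238, 266 and 266 CPM in control tumours, 178, 209 and 195 CPM with p38i, 152, 139 and 144 CPM with EZH2i, and 175, 147 and 133 CPM with the combination. The treated libraries all lay below the controls. The EZH2i difference was -0.82 ± 0.14 (1.77-fold lower, adjusted p = 0.0398), that with the combination -0.76 (0.0824) and that with p38i -0.40 (0.146). The combination difference passed in DESeq2 (adjusted p = 0.000125), and in edgeR without control 2-1 (0.0420) or EZH2i 5-4 (0.0464). The EZH2i call ended without control 1-1 (adjusted p = 0.0841) or 1-3 (0.214), p38i 3-3 (0.0608) or column 5 (0.0679), EZH2i 5-4 (0.180) or 6-1 (0.0634), combination 9-1 (0.0656) or 9-2 (0.0570), and with the groups compared alone (0.180), with differences of -0.87 to -0.79.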

How the data were processed

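RNA-seq of 12 tumours was used. The authors deposited raw counts, whole numbers per gene symbol, in a table whose headers name no scaling. Per the submitters' processing notes, the tools were Trim Galore 0.5.0 and STAR 2.6.0, and the genome build was hg19. Which program counted reads, how it used strand and any removal of mouse reads are not given in the sources used here, so antisense and overlapping genes cannot be told apart and conserved mouse RNA may be counted. Per the labels, 1.3 µg of RNA went into each library, and both a SMARTer kit and QuantSeq are named. A further 3 lines of the count file named no gene and held 0 counts.

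Counts were filtered with filterByExpr, scaled by TMM and fitted in edgeR 4.0.16 (R 4.3.3) by a robust quasi-likelihood model with 1 term per group over all 12 libraries. The tests were two-sided F tests with Benjamini-Hochberg adjustment over 12514 genes and a threshold of 0.05. SEs were derived from the F statistics. Levels used for class medians are log2(CPM + 1). The biological coefficient of variation was 0.219. No batch is named in the labels. The code was tested on simulated data.

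Members and lists were chosen with earlier results of these data known. Full statistics are given for members in the comparisons where they passed the threshold or had an unadjusted p under 0.05 against control. For their other comparisons some values are given without SE or adjusted p. Further members were singled out after their values were seen. Alternatives were DESeq2 1.42.0, limma-voom (limma 3.58.1), RLE factors, library totals, no filter, genes averaging 5 CPM or more, the groups compared alone and each library left out.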

Additional observations from a re-analysis of the deposited data

How the results depend on the processing

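For the 33 pairs of a member and a comparison followed singly, 626 values were recomputed. Of these 606 kept their direction and side of the threshold, 10 lost a call, 7 gained one and 3 changed direction. The 3 were SLC2A3 with p38i without tumour 3-3 (-0.090, and 0.61 without column 6), VEGFA with p38i without 3-3 (-0.077, and 0.70 without column 6) and GAPDH with EZH2i without 6-1 (0.11, and -0.30 without 5-3). Over all 34 members, leaving out 1 library turned the direction of 17 with p38i, 12 with EZH2i and 9 with the combination, none of which had passed. The 10 losses are those of ANGPTL4 with p38i given above. The count of members called with p38i was 1, and it was 0 with limma-voom, 0 with no filter on low counts and 0 with a fit of the groups compared alone. Leaving out 1 library gave 0 to 2. With EZH2i the count was 0 in edgeR and 2 in DESeq2 (SLC2A1 and ANGPTL4). With the combination it was 0 in edgeR and 2 in DESeq2 (SLC2A1 and VEGFA), and leaving out 1 library gave 0 to 1, where 1 is HK2 without control 2-1. For the interaction it was 0 in edgeR and 1 in DESeq2. The cause of these differences was not tested. Against p38i and against EZH2i the combination gave 0 called members in every alternative run.

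The gap between enzymes and other members moved by less than its spread between libraries in all 19 alternatives of each comparison. With p38i and EZH2i this spread exceeded the gap itself, so the loss of the gap would also have met this rule. Over the 19 alternatives the gap ran from -0.42 to -0.04 with p38i, from -0.39 to -0.02 with EZH2i and from -0.42 to -0.11 with the combination. Some alternatives left out a library of neither group compared. The p38i counts rest on 3-3, column 5 and column 6, and the last reached its group by elimination. The set of p38i members not overlapping control was recomputed without column 6 after the data were seen, and held 13 members in place of 5. Leaving out a library makes non-overlap easier for any gene. The share of all genes rose as well, from 12.3% to 17.5% wholly above control and from 12.5% to 16.7% wholly below. No paired analysis was possible because the groups share no tumour numbers. CA9, ANKRD37, PGAM1, P4HA2 and ALDOC are limited by low counts.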
